A study of Mus musculus with 3 samples.

Results

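Conventional dendritic cells (cDCs) of the sciatic nerve were compared by maturity: 92 mature cells against 189 immature cells, out of 294 cells that the authors classed as cDC and 11640 leukocytes in all. The cells were chosen by their counts of 4 genes. A cDC was counted as mature when its UMIs (unique molecular identifiers, each standing for 1 captured RNA molecule) of Fscn1, Ccr7, Il4i1 and Cacnb3 summed to 3 or more, and as immature when they summed to 0 or 1. The 13 cDCs with 2 such UMIs belonged to neither group. The cells are the CD45+ fraction of nerves of NOD.AIRE GW/+ mice, 15 weeks of age, which carry 1 altered copy of Aire on the autoimmunity-prone NOD background. All 3 libraries are of this genotype and age, each holds mature and immature cells of the same nerves, and with wild-type nerves not analysed here nothing below measures an effect of genotype. Libraries 1 and 2 were sequenced from the 3′ end and library 3 from the 5′ end. The labels call the libraries separate samples but do not say how many animals each holds, so a p-value reflects the variation among 3 libraries, which may be technical in part.

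Dendritic cells take up material in tissue, cut it into peptides and show these to T cells on MHC molecules. On maturation they are known to turn down uptake, turn on the chemokine receptor Ccr7 and the actin bundler Fscn1, and travel through lymph to the draining node. Mature cells carry both molecules that activate T cells, such as Cd40 and interleukin-12, and molecules that restrain them, such as Cd274 (PD-L1) and Cd200, and the alternative NF-kB pathway through Relb and Nfkb2 is active in them.

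The 4 genes that chose the cells are described without a test. Fscn1 (chromosome 5, 142960343 to 142973185 on GRCm38) encodes fascin, Ccr7 (chromosome 11, 99144196 to 99155077) the receptor that guides cells to lymph nodes, Il4i1 (chromosome 7, 44816387 to 44840809) a secreted amino acid oxidase, and Cacnb3 (chromosome 15, 98630840 to 98644529) a calcium channel subunit. Of the 92 mature cells, 79 had a UMI of Il4i1, 58 of Ccr7, 50 of Fscn1 and 38 of Cacnb3. Of the 189 immature cells, 15 had a UMI of Ccr7, 14 of Il4i1, 4 of Fscn1 and 0 of Cacnb3. The summed UMIs ran from 0 in 156 cells to 157 in 1 cell, with a median of 10 among mature cells. Just outside the threshold lay the 13 cells with 2 UMIs and the 33 cells with 1, and just inside lay 17 cells with 3. At the other end, 18 cells had 50 or more.

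**Figure D1:**
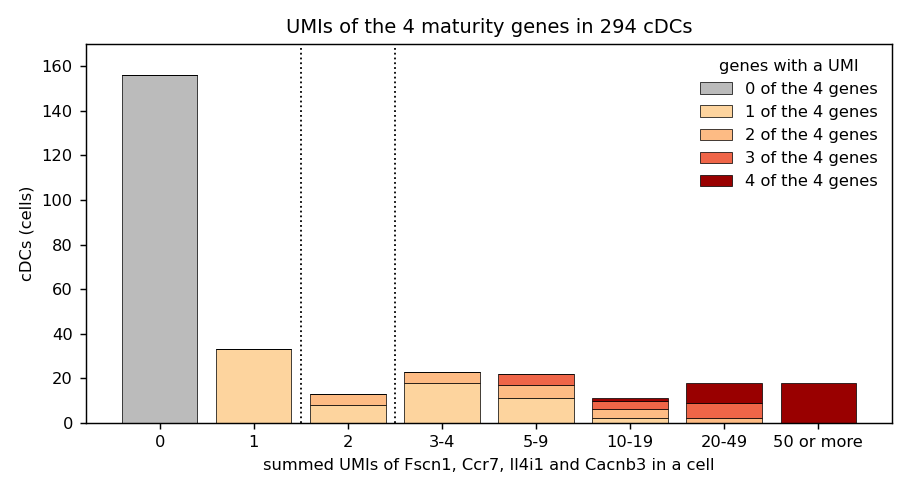
Number of cDCs (vertical axis) by the summed UMIs of Fscn1, Ccr7, Il4i1 and Cacnb3 in the cell (horizontal axis, in bins), coloured by how many of the 4 genes had a UMI; dotted lines bound the 13 cells left out. All 18 cells with 50 or more UMIs had all 4 genes, and 18 of the 23 cells with 3 or 4 UMIs had 1 gene only.

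Mature cells were 70 of 232 cDCs in library 1 (30.2%, exact binomial 95% interval 24.3 to 36.5%), 12 of 28 in library 2 (42.9%, 24.5 to 62.8%) and 10 of 34 in library 3 (29.4%, 15.1 to 47.5%). The mean share was 34.1 ± 7.55% (SD, n = 3), and the 3 intervals overlap; intervals cover counting error only. The share depends on how many UMIs a cell has: with every cell thinned to 4000 UMIs it was 24.6%, and with 5 UMIs asked for it was 26.2%. Depth itself was close in the groups. Median UMIs of mature and immature cells were 9174.5 and 8523.5 in library 1, 11108 and 12156 in library 2, and 6682.5 and 8658 in library 3, so mature cells were the deeper group in library 1 alone.

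The 92 cells were not of 1 kind, and the label mature matched the data best where several of the 4 genes were present together. All 4 genes were found in 28 cells, 3 genes in 16, 2 genes in 17, Il4i1 alone in 23 and Ccr7 alone in 8. Pooled over libraries, Ccl22, the fourth marker given for mature cells and not used in the choice, stood at 615 counts per 1000000 UMIs (CPM) in the cells with 4 genes, 164 with 3 genes, 88.0 with 2, 148 with Ccr7 alone and 19 with Il4i1 alone, against 14.1 in immature cells. The cells with Il4i1 alone therefore lay near the immature level. Socs2, which restrains cytokine signalling, went from 607 and 482 CPM with 4 and 3 genes to 31.4 with 2 genes, and was at 0 in the cells with 1 gene. Relb, a subunit of NF-kB, followed the same order at 623, 528 and 220.1 CPM, with 80.8 in Il4i1-alone, 80.6 in Ccr7-alone and 56.3 in immature cells.

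The 23 cells with Il4i1 alone had other genes high. Tcf4, the factor that defines plasmacytoid dendritic cells (pDCs), stood at 827 CPM in them, against 133 in immature cells and 48.2 in cells with all 4 genes. The authors' pDC class had 1439 CPM. Siglech, a pDC surface lectin, was at 219 CPM in Il4i1-alone cells and 2687 in pDCs. The gut-homing receptor Ccr9 was at 276 against 1701 CPM, so both were far below the pDC level. Irf8, at 2741 CPM in pDCs, was lower in Il4i1-alone than in immature cells, as given below. Other listed pDC markers are not given for these cells. The lectins Cd209a and Cd209d stood at 276 and 665 CPM in these cells, against 46.5 and 37.9 in immature cells and 0 and 4.02 in cells with all 4 genes. The pDC class had 179 and 518 CPM, so for both lectins the Il4i1-alone cells lay above the pDC level. Of the 23 cells, 20 came from library 1, which gave 70 of all 92 mature cells. These groups are a description without a test, and were looked at after the values had been seen.

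Pooled, the 8 cells with Ccr7 alone had UMIs of B cell genes. The B cell receptor component Cd79a was at 201 CPM and the B cell factor Ebf1 at 161 CPM in them, against 9.79 and 4.28 in immature cells and 0 in the cells with all 4 genes. The authors' B class had 2207 and 1148 CPM. Of the 8 cells, 3 had at least 2 UMIs of 9 T and B cell genes, so the pooled levels may come from few cells. Ccr7 is also a lymphocyte gene: 78.1% of B cells and 25.6% of CD4 T cells had a UMI of it, and 41.3% of B cells would have met the same threshold. In B cells, Il4i1 was found in 6.46%, Fscn1 in 3.13% and Cacnb3 in 0.103% of cells at a median of 3113.5 UMIs, and in cDCs in 34.4%, 19% and 13.3% at a median of 8700 UMIs.

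**Figure D2:**
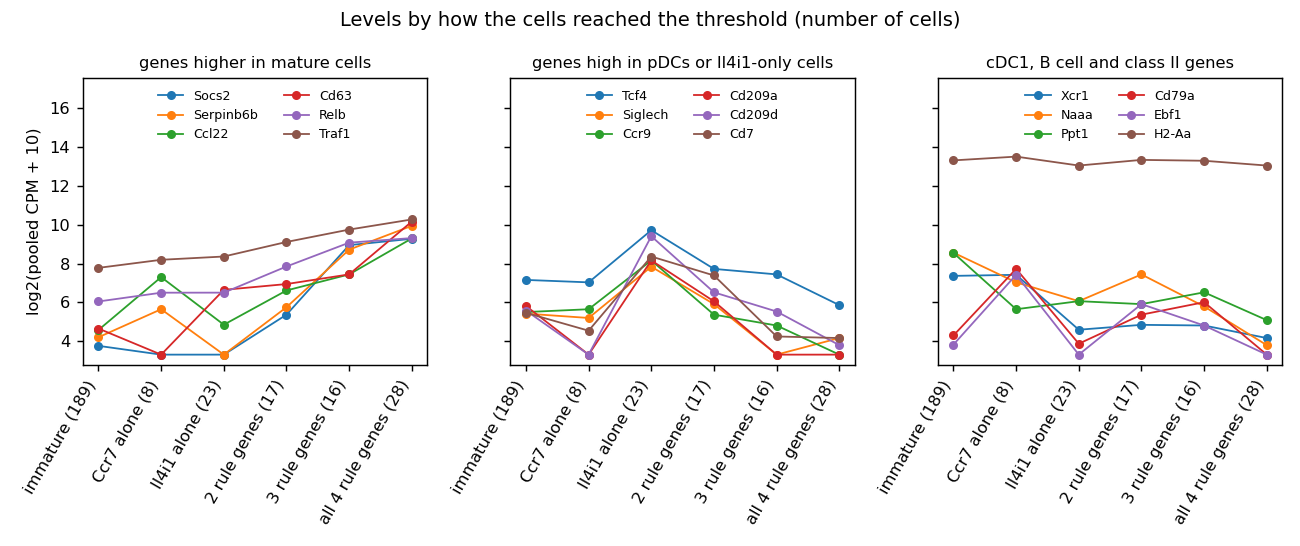
Pooled level of 18 genes (vertical axis, log2 of CPM + 10) in immature cells and in mature cells by which of the 4 genes they had (horizontal axis, number of cells in brackets); lines join the values of 1 gene and imply no order in time. Socs2 goes from 0 CPM in cells with 1 gene to 607 CPM with all 4, Tcf4 peaks at 827 CPM in Il4i1-alone cells, and the class II gene H2-Aa lies between 8344 and 11471 CPM in every group.

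Beside the results that follow, these values differed between the groups, though not in the same direction in every library. Cells with at least 2 UMIs of 9 lymphocyte genes made up 18.6, 0 and 40.0% of mature and 10.7, 6.25 and 17.4% of immature cells in libraries 1, 2 and 3. Cells scored outside the G1 phase made up 11.4, 8.33 and 10.0% of mature and 24.0, 25 and 4.35% of immature cells. Their part in the results was not tested, except that fits without the lymphocyte-UMI cells are given. Scrublet marked 2 of the 294 cDCs as doublets, 1 of them immature and none mature. Of the whole series, 6 barcodes occur in more than 1 library, and 1 of these is a cDC. Summed UMIs per library were 604311, 124257 and 74216 in mature and 1279178, 181389 and 174019 in immature cells, so library 1 carries most of the depth.

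In mature cDCs, Il12b, Nudt17, Socs2, Serpinb6b, Fabp5, Cd63 and Ccl22 led the rises, and Rab7b, Ppt1 and Naaa led the falls. UMIs were summed per library and group and tested with edgeR's quasi-likelihood test, with the library as a block and Benjamini-Hochberg adjustment over all 2344 tested genes, the 4 choosing genes left out. Of these, 152 were higher in mature cells (6.48%) and 48 lower (2.05%) at an adjusted p under 0.05, 200 in all (8.53%). The median log2 fold change of all tested genes was -0.00. The mature and immature values did not overlap for 237 genes in the higher (10.1%) and 175 in the lower direction (7.47%). Since the groups were drawn from counts in the same cells, the p-values are no evidence that mature and immature cells are distinct kinds. Genes that vary with the 4 choosing genes had to differ. Those near 0 in 1 group, such as Il12b and Rab7b, could pass edgeR's filter on low counts only through the other group. Their place among the largest changes is therefore no independent support. Levels below are CPM scaled by edgeR's TMM factors, given for libraries 1, 2 and 3 in that order, and fold changes are log2 of mature over immature with their standard error (SE).

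Il12b (chromosome 11, 44400063 to 44414033), the subunit shared by interleukins 12 and 23, had 88.3, 137 and 131 CPM in mature cells and 0 in the immature cells of every library. Its 79 UMIs came from 14 of 92 mature cells, 28 of them from 1 cell, and 0 of 189 immature cells had any, which allows a share of up to 1.59%. Against the 3 UMIs that a count of 0 allows over the group, Il12b was at least 53.6-fold higher in mature cells (adjusted p = 0.00107). All cells with Il12b therefore lay on the mature side, but they were a minority of it. In the other classes it was listed at 6.01 CPM in macrophages and at 0 in B cells.

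Socs2 (chromosome 10, 95385362 to 95417180) had 183, 709.7 and 209 CPM in mature and 2.26, 11.2 and 5.64 CPM in immature cells, which is a change of 5.95 ± 0.37 (SE; adjusted p = 2.58e-05) on the log2 scale. Mature values lay above immature ones in each library, and library 2 had the highest mature level. Serpinb6b, an intracellular serine protease inhibitor, had 285, 838 and 353 against 9.03, 5.62 and 5.64 CPM, a change of 5.45 ± 0.36 (adjusted p = 2.58e-05). Fabp5, which carries fatty acids inside cells, had 1067, 2249 and 118 against 30.1, 11.2 and 16.9 CPM, a change of 5.44 ± 0.49 (adjusted p = 0.00021). Its mature level in library 3 was far below that in library 1, though still above every immature value. Cd63, a tetraspanin of late endosomes, had 288, 1274 and 183 against 13.5, 28.1 and 11.3 CPM, a change of 4.69 ± 0.32 (adjusted p = 2.58e-05).

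Ccl22 (chromosome 8, 94745590 to 94751699), a chemokine for T cells that bear Ccr4, had 250.01, 376 and 78.4 CPM in mature and 17.3, 0 and 0 CPM in immature cells, a change of 4.40 ± 0.51 (adjusted p = 0.000725). Its immature UMIs, 23 in all, came from 8 cells of library 1 (12 of them from 1 cell), and without that library the fold change was 7.95, since immature cells of the other libraries had none. A UMI of Ccl22 was found in 34.3, 75 and 20.0% of mature cells and in 5.33, 0 and 0% of immature cells, and with cells thinned to 4000 UMIs in 21.9, 63.6 and 12.5% against 5, 0 and 0%. In the authors' B, CD4 and macrophage classes 0.103, 0.0528 and 0.516% of cells had one, at median depths of 3113.5, 2504.5 and 7434 UMIs. Nudt17, a hydrolase gene, had 110 UMIs in mature and 1 in immature cells, a ratio of 224 (95% interval of the counts from 39.4 to 8926). It was called higher (adjusted p = 0.000366). The call ended with cells weighted equally in limma (log2 fold change 3.26, adjusted p = 0.0526). That fit adds 10 CPM before the log, which makes changes of genes near 0 in 1 group smaller. Tm4sf5, Anxa3 and Bcl2l14 complete the 10 largest rises at 3.90, 3.86 and 3.77. Anxa3 is a membrane-binding annexin and Bcl2l14 a relative of Bcl2.

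Among the falls, Rab7b, a small GTPase of lysosomes, had 1.67, 0 and 13.1 CPM in mature and 85.8, 141 and 107 CPM in immature cells. Only 2 UMIs were counted in mature cells, a ratio of 0.0258 (95% interval of the counts from 0.00309 to 0.0947), and the gene was called lower (adjusted p = 0.00107). The lysosomal thioesterase Ppt1 had 55.0, 17.1 and 39.2 against 339, 461 and 344 CPM, a change of -3.06 ± 0.34 (adjusted p = 0.000624). Naaa, a lysosomal amidase, had 68.3, 34.2 and 105 against 345, 467 and 321 CPM, a change of -2.46 ± 0.32 (adjusted p = 0.00137). For these 3 genes the mature values lay below the immature ones in every library. BC028528 (-2.34), Gatm of creatine synthesis (-2.15), the surface glycoprotein Cd24a (-1.88), the kinase Pak1 (-1.43), the lectin Clec12a (-1.34) and the trafficking factor Unc119 (-1.30) fell less. Without library 1 the calls of BC028528 (-2.10), Cd24a (-1.64), Pak1 (-1.65), Clec12a (-1.51) and Unc119 (-1.49) ended, and that of Unc119 also ended without library 3 (-1.29). Pooled, Ppt1 was at 363 CPM in immature cells and at 57.0 CPM in Il4i1-alone cells, so its lower level was also seen in the mature cells that had little or no Ccl22 and Socs2.

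**Figure D3:**
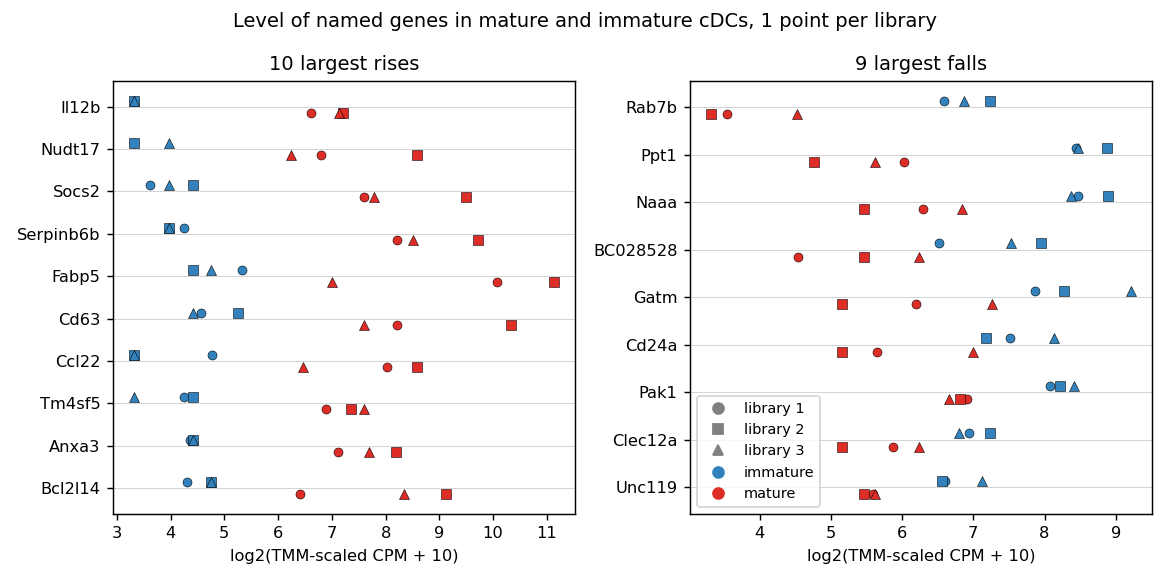
Levels of the 10 largest rises (left) and the 9 largest falls (right) on a log2 scale of CPM + 10, 1 point per library and group (blue immature, red mature; circle, square and triangle for libraries 1, 2 and 3). For each gene plotted the 3 red points lie apart from the 3 blue points, as the choice of these genes required.

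Most tested genes among those that recur in descriptions of mature dendritic cells rose. Of a list of 30, 20 were tested, 19 rose and 0 fell, with a median log2 fold change of 3.09 against -0.00 for all tested genes and 6.48% of all genes called higher. Cst3, the cystatin that is abundant in all cDCs, was the tested member not called, at 7960.2, 13194 and 8708 CPM in mature and 11328, 14167 and 13549.7 in immature cells (-0.42 ± 0.14 (adjusted p = 0.114)), though it was called lower without library 2 (-0.63) and with no filter on low counts (-0.60). The list was written with earlier results of these data in view. Members near 0 in immature cells, such as Nudt17, Serpinb6b and Cd63, could pass the filter on low counts only through the mature sums. The count of 19 of 20 is therefore no independent support. The same filter decided which members of every other list were tested. Each list count in the following is to be read against the same shares of all tested genes, 6.48% higher and 2.05% lower. Beyond genes already described, Samsn1, an adaptor that dampens lymphocyte signalling, had 757, 2052 and 549 against 91.1, 61.8 and 124 CPM, a change of 3.34 ± 0.42 (adjusted p = 0.00107). Zmynd15 had 265, 1223 and 601 against 51.2, 16.9 and 28.2 CPM, a change of 3.62 ± 0.50 (adjusted p = 0.00175), and 5.21 without library 1. The granzyme inhibitor Serpinb9 (3.63), the Rab regulator Tbc1d4 (2.64), Basp1 (2.39), the exchange factor Net1 (2.31), the repressor Etv3 (1.75), the protease inhibitor Spint2 (1.56) and the stress gene Gadd45b (1.35) also rose. Without library 1, 16 of 20 tested members were called, the calls of Etv3 (1.54), Spint2 (1.43) and Gadd45b (1.23) being lost.

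Genes of the alternative NF-kB pathway and of cell survival were among those that rose, and 0 of the list fell. Of 39 genes of TNF and NF-kB signalling, 24 were tested and 8 rose (6.48% of all tested genes rose), with a median of 0.87 and 16 not called. Relb (chromosome 7, 19606217 to 19629438), the partner of Nfkb2 in the alternative pathway, had 307, 470.3 and 418 CPM in mature and 50.4, 45.0 and 95.8 in immature cells, a change of 2.64 ± 0.27 (adjusted p = 0.00045), with no overlap between groups. Nfkb2 had 115, 179.6 and 196 against 38.4, 39.4 and 84.5 CPM (1.61 ± 0.29 (adjusted p = 0.00835)), and Map3k14, the kinase NIK that starts this pathway, 93.3, 145 and 78.4 against 37.6, 28.1 and 33.8 CPM (1.52 ± 0.35 (adjusted p = 0.0256)). Mature values of both exceeded immature ones in their own library. Of the classical subunits, Rel, the subunit c-Rel, rose with 697, 1018 and 509.9 against 327, 405 and 248 CPM (1.16 ± 0.21 (adjusted p = 0.00742)). Rela was not called at 40.0, 103 and 196 against 23.3, 11.2 and 113 CPM (1.13 ± 0.43 (adjusted p = 0.148)), nor was Nfkb1 at 187, 274 and 52.3 against 135, 129 and 78.9 CPM (0.52 ± 0.30 (adjusted p = 0.345)). The difference in change between the subunits was not tested.

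Among adaptors and survival genes, Traf1, which binds TNF receptors, had 583, 1411 and 719 against 184, 230.5 and 321 CPM (1.81 ± 0.28 (adjusted p = 0.00358)). The ubiquitin ligase Birc2 had 152, 505 and 131 against 36.9, 56.2 and 22.5 CPM (2.46 ± 0.32 (adjusted p = 0.00121)). The apoptosis inhibitors Bcl2a1b (1.43 ± 0.23 (adjusted p = 0.00521)) and Cflar (1.31 ± 0.35 (adjusted p = 0.0491)) also rose. Bcl2a1b has near-identical copies, so its reads can be split among them, and the Cflar values of the groups overlap. Tnfaip3 and Nfkbia, which switch NF-kB off, were not called, at 0.73 and 0.78. The ligand Tnf was too rare to test, with 8 UMIs in mature and 32 in immature cells, a ratio of 0.509 (95% interval of the counts from 0.203 to 1.13). Its receptor Tnfrsf1a had 27 and 117 UMIs, a ratio of 0.470 (95% interval of the counts from 0.297 to 0.719) that covers counting error only. Without library 1 the calls of Nfkb2 (1.64), Rel (1.18), Map3k14 (1.83) and Cflar (0.80) ended, and against immature cells without Xcr1 or Clec9a those of Rel (0.86), Bcl2a1b (0.84) and Cflar (0.84).

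With Nfkb2, Relb and Rel among the genes that rose, the 250 bases before the start of each called gene were searched for GGG, any 3 bases and TTCC, a common form of the NF-kB site, on both strands in RefSeq promoters of GRCm38.p6. The letters occur in 4.6% of all 27025 promoters and in 6.39% of the 1861 promoters matched to tested genes. They occur in 13 of 119 matched genes called higher (10.9%) and in 1 of 36 called lower (2.78%), a description without a test. Nfkb2 and Rel, which rose, are shown since they encode NF-kB subunits and hold the letters; the promoter of Relb was not searched here. The capitals mark each match, and positions count back from the start site, the base before it being -1. Nfkb2 (chr19:46304487-46304736, plus strand) has a match on the other strand that begins at -38 and 1 on its own strand that begins at -11. Rel (chr11:23770970-23771219, minus strand) has 1 on the other strand that begins at -91.
Nfkb2: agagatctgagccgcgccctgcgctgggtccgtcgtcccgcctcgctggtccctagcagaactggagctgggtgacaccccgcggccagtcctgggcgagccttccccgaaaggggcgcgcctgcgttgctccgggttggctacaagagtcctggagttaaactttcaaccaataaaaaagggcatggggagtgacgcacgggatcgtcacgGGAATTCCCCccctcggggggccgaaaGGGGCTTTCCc
Rel: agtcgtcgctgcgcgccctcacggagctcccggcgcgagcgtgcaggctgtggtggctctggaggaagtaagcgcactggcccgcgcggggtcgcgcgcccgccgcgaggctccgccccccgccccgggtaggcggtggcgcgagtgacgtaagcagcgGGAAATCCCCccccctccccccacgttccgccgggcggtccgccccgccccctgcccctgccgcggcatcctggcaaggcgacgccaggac
A match is only a run of letters, and no match was found in these windows of Ccl22, Cd274, Birc2, Traf1 or Il12b.

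Of 12 costimulatory genes with counts 7 were tested, 2 rose (6.48% of all tested genes did) and 0 fell, with a median of 0.50. Cd40, the receptor through which T cells license dendritic cells, had 188, 393 and 314 CPM in mature and 66.2, 61.8 and 186 in immature cells (1.57 ± 0.31 (adjusted p = 0.0133)), without overlap. Icosl, the ligand of the T cell receptor Icos, had 86.7, 248 and 196 against 28.6, 39.4 and 84.5 CPM (1.74 ± 0.32 (adjusted p = 0.00848)), also above in each library. Both calls ended without library 1, at 1.62 and 1.87. Cd86, a ligand of Cd28, was not called at 252, 342 and 118 against 245, 292 and 129.6 CPM (0.07 ± 0.22 (adjusted p = 0.884)). Cd83, often used as a maturation marker, was not called either, at 460.0, 1325 and 1765 against 332, 1018 and 1685 CPM (0.31 ± 0.19 (adjusted p = 0.376)). Both overlapped between the groups, and Cd83 differed more between libraries than between groups. Icam1 had 127, 308 and 849.9 against 94.8, 157 and 101 CPM and was not called (1.34 ± 0.41 (adjusted p = 0.0822)). It was called without library 2 (1.40), with DESeq2 size factors (1.30), with no filter on low counts (1.16), with 5 or more against 0 UMIs (1.34), with 2 or more against 0 or 1 (1.39) and with at least 2 choosing genes (1.41). Cd80 was not tested, with 48 UMIs in mature and 40 in immature cells, a ratio of 2.44 (95% interval of the counts from 1.57 to 3.81). Tnfsf4 (OX40 ligand) had 16 UMIs, all in mature cells of library 2, and Cd70 had 19 and 2.

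Of 16 inhibitory genes 8 were tested: Socs2, Cd200 and Cd274 rose (6.48% of all tested genes did), 0 fell and 5 were not called, with a median of 0.10. Besides Socs2, Cd200, a ligand that quiets myeloid cells, had 133, 479 and 157 CPM in mature and 9.03, 16.9 and 33.8 in immature cells (3.70 ± 0.42 (adjusted p = 0.000711)). Cd274, the PD-1 ligand, had 162, 368 and 144 against 53.4, 73.1 and 45.1 CPM (1.83 ± 0.29 (adjusted p = 0.00421)). Neither overlapped between groups, and both stayed called without each library in turn, from 3.32 to 4.07 and from 1.54 to 2.04. With cells weighted equally in limma the call of Cd200 ended, at 2.24 (adjusted p = 0.133). The other PD-1 ligand, Pdcd1lg2, was not tested, with 59 UMIs against 8, a ratio of 15.0 (95% interval of the counts from 7.14 to 36.4). Socs1 (0.21) and Socs3 (-0.40) were not called, Ido1 had no UMI in either group, and the retinoic acid enzyme Aldh1a2 had 3 and 2.

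Of 17 chemokines with counts 9 were tested, 3 rose (6.48% of all tested genes did) and 1 fell (2.05%), with a median of 0.03. Ccl5, which attracts T cells, had 757, 2736 and 2170.4 CPM in mature and 140.0, 73.1 and 738 in immature cells (2.79 ± 0.50 (adjusted p = 0.00762)). The call ended with cells weighted equally in limma (2.35, adjusted p = 0.0927) and in the middle range of depth (2.82, adjusted p = 0.0609). Pooled, Ccl5 was at 535 CPM in cDCs, 21012 in the authors' CD8 class and 10649 in their gdT/NK/NKT class. Cells with lymphocyte UMIs made up a larger share of mature than of immature cells in libraries 1 and 3, and without such cells in either group the change of Ccl5 was 3.37 (adjusted p = 0.000203). Cxcl16 had 708, 1129 and 771 against 424, 483 and 462 CPM (0.90 ± 0.21 (adjusted p = 0.0256)). Cxcl10, an interferon-induced ligand of Cxcr3, fell, with 183, 205 and 52.3 against 315, 506 and 299 CPM (-1.21 ± 0.28 (adjusted p = 0.0262)). Its sister Cxcl9 was not called at 1315, 368 and 39.2 against 764, 309 and 237 CPM (0.10 ± 0.41 (adjusted p = 0.928)), being higher in mature cells of libraries 1 and 2 and lower in library 3. The calls of Cxcl16 and Cxcl10 ended without library 1 (0.98 and -1.71) and without library 3 (0.88 and -1.08). Ccl17, which shares its receptor with Ccl22, was not tested, with 120 UMIs in mature and 191 in immature cells, 131 of the latter in 1 cell of library 1. Ccl19 had no UMI in either group.

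Cytokine genes were mostly too rare to test: 3 of 24 were, with Il12b the 1 that rose. Il1b, an inflammatory cytokine, was not called at 1030.0, 1239.9 and 2968 CPM in mature and 1369.8, 1540.4 and 2322 in immature cells (-0.13 ± 0.20 (adjusted p = 0.745)). Il15, which feeds memory T and NK cells, had 15 UMIs in mature and 0 in immature cells, at least 10.2-fold higher, and its presenting chain Il15ra had 44 and 8. Il12a had 1 UMI in mature and 1 in immature cells, and Il23a 0 and 5. Of 25 cytokine receptors 16 were tested, 2 rose (6.48% of all tested genes did) and 0 fell, with a median of 0.13. Il7r had 123, 274 and 78.4 against 31.6, 50.6 and 39.5 CPM (1.94 ± 0.32 (adjusted p = 0.00521)) and Il21r 90.0, 179.6 and 209 against 41.4, 61.8 and 135 CPM (1.08 ± 0.29 (adjusted p = 0.0473)). The call of Il7r ended without library 1 (1.87), and that of Il21r without any 1 of the libraries (1.04, 0.89 and 1.18). Il2ra had 55 UMIs in mature and 5 in immature cells, a ratio of 22.4 (95% interval of the counts from 9.04 to 71.7). Tnfrsf1b was not called (0.96).

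Of 22 migration genes 13 were tested, 4 rose (6.48% of all tested genes did) and 1 fell (2.05%), with a median of -0.39. Myo1g, a membrane-linked myosin, had 178, 410.4 and 405 CPM in mature and 42.1, 67.5 and 73.3 in immature cells (2.31 ± 0.25 (adjusted p = 0.000624)), without overlap. Marcks, which binds actin and the membrane, had 478, 1291 and 91.5 against 102, 152 and 50.7 CPM (2.36 ± 0.33 (adjusted p = 0.00175)). Its relative Marcksl1 had 482, 932 and 1189.8 against 162, 118 and 1031 CPM (1.46 ± 0.40 (adjusted p = 0.0499)), and the integrin chain Itga4 252, 368 and 288 against 126, 112 and 214 CPM (1.03 ± 0.26 (adjusted p = 0.0365)). Each was higher in mature cells of every library, though the values of both Marcks genes overlap across libraries. Ccr2, the receptor that draws monocytes and cDC precursors into tissue, fell, with 155, 68.4 and 248 against 367, 197 and 626 CPM (-1.32 ± 0.23 (adjusted p = 0.00594)). It was at 380.1 CPM in Il4i1-alone cells and at 8.04 in cells with all 4 choosing genes. Of 28 cytoskeletal genes, which include Myo1g and both Marcks genes, 25 were tested, 5 rose and 0 fell, with a median of 0.28. Tuba1a (1.58) and Lsp1 (1.06) were the others, and Actb was not called (0.38). Without library 1 the calls of Marcksl1 (1.45), Itga4 (1.05), Ccr2 (-1.41), Tuba1a (1.78) and Lsp1 (1.17) ended, and without library 2 that of Itga4 (0.74).

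MHC class II genes, which present peptides to CD4 T cells, were at high levels in both groups: of 14 with counts 10 were tested, 0 rose and 1 fell, with a median of -0.17. H2-Aa had 7994, 13134 and 13951 CPM in mature and 7932, 15735 and 17230.3 in immature cells (-0.18 ± 0.13 (adjusted p = 0.449)), and the invariant chain Cd74 17832, 17803 and 30660.4 against 17605, 26501 and 39105 CPM (-0.30 ± 0.14 (adjusted p = 0.232)). Neither was called, and values overlapped. H2-DMb1, a chain of the peptide-loading factor, fell, with 330.0, 479 and 235 against 683, 1169 and 434 CPM (-1.09 ± 0.21 (adjusted p = 0.0117)), a call that ended without library 1 (-1.12). Of 23 class I genes, 22 were tested, 6 rose (6.48% of all tested genes did) and 0 fell, with a median of 0.41. The difference between the class I and class II lists was not tested. B2m, the light chain, had 3360.1, 6011 and 3295 against 2177, 2277 and 2638 CPM (0.78 ± 0.21 (adjusted p = 0.0428)) and Psme2, of the proteasome activator, 1007, 1437 and 1321 against 591, 359.8 and 789 CPM (1.13 ± 0.26 (adjusted p = 0.0256)). H2-K1 (0.89), H2-D1 (0.72), H2-Q4 (1.16) and H2-Q7 (1.12) also rose. These heavy chains are near-identical copies that differ between strains, so their counts are uncertain. All 6 class I calls ended without library 1, with changes from 0.73 to 1.43. All but H2-Q7 also ended without library 3, with changes from 0.80 to 1.32, and H2-Q4 ended without library 2 (0.66).

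Lysosomal genes passed in both directions. Of 28, 20 were tested, 3 rose (6.48% of all tested genes did) and 3 fell (2.05%), with a median of -0.04. Lamp1 of the lysosomal membrane had 325, 1171 and 405 CPM in mature and 108, 84.3 and 248 in immature cells (1.94 ± 0.44 (adjusted p = 0.0229)), and the protease Lgmn 81.7, 248 and 353 against 41.4, 135 and 135 CPM (1.07 ± 0.26 (adjusted p = 0.0317)). With Cd63 they made up the rises. Psap, which activates lipid-degrading enzymes, fell, with 553, 410.4 and 2667 against 1155, 1692 and 4334 CPM (-1.22 ± 0.24 (adjusted p = 0.013)), as did Laptm5 (-0.87). Without library 1 the calls of Lamp1 (2.20), Lgmn (1.12), Psap (-1.34) and Laptm5 (-1.14) ended, and without library 3 those of Lgmn (0.85) and Laptm5 (-0.84). Of 26 uptake receptors with counts 8 were tested, 0 rose and 1, Clec12a, fell, with a median of -0.69. Of 24 Toll-like receptor pathway genes 5 were tested, 0 rose and 1 fell: Unc93b1, which carries these receptors to endosomes, at -0.97, a call lost without library 1 (-1.09) or 3 (-1.17). Tlr3, the double-stranded RNA sensor, was not tested, with 3 UMIs in mature and 76 in immature cells, a ratio of 0.0804 (95% interval of the counts from 0.0162 to 0.244).

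Type 1 cDCs are the cross-presenting subset. Of 14 genes 10 were tested, 0 rose and 4 fell, namely Ppt1, Naaa, Cd24a and Wdfy4, with a median of -1.43 against -0.00 for all tested genes and 2.05% of all genes called lower. The defining markers Xcr1 and Clec9a did not pass with the whole groups but passed under several other settings. Xcr1 had 13.3, 0 and 183 CPM in mature and 159.6, 112 and 118 in immature cells (-2.06 ± 0.74 (adjusted p = 0.128)). Its mature value in library 3 was above every immature value, but came from 14 UMIs in 2 of 10 cells, 11 of them in 1 cell. Over all libraries 8.70% of mature and 29.1% of immature cells had a UMI of Xcr1. It was called without library 2 (-1.89), without library 3 (-3.88), without lymphocyte-UMI cells (-3.74), with no filter on low counts (-2.24), with 5 or more against 0 UMIs (-2.01) and with at least 2 (-3.46) or 3 choosing genes (-3.72). Clec9a had 21.7, 0 and 26.1 against 54.9, 112 and 118 CPM (-1.98 ± 0.54 (adjusted p = 0.0506)), below in each library. It was called without library 2 (-1.58), with DESeq2 size factors (-2.01), with no filter (-2.15), without Scrublet doublets (-1.98), with 5 or more against 0 UMIs (-2.03), with 2 or more against 0 or 1 (-1.78) and with at least 2 (-2.42) or 3 choosing genes (-3.04). Wdfy4, needed for cross-presentation, had 160.0, 59.9 and 105 against 266, 186 and 219.8 CPM (-0.99 ± 0.26 (adjusted p = 0.0456)), a call that ended without library 1 (-1.34) and without library 3 (-1.06). Irf8, the factor that specifies this subset, was not called at 497, 864 and 915 against 590.1, 382 and 479 CPM (0.56 ± 0.28 (adjusted p = 0.288)), but was called higher with cells thinned to 4000 UMIs (1.41) and with 5 or more against 0 UMIs (0.95). Pooled, Irf8 was at 1338 CPM in cells with all 4 choosing genes, 181 in Il4i1-alone and 573 in immature cells. The authors' pDC class had 2741 CPM.

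Of the 189 immature cells 115 had no UMI of Xcr1 or Clec9a, and mature cells were also set against these alone. Such cells were taken from the immature side only, which by itself moves type 1 cDC genes away from a fall, so nothing is read from the smaller changes of these genes. In that fit 93 genes were higher and 29 lower of 1385 tested. Naaa was at -1.36 (adjusted p = 0.0452) and Wdfy4 at -0.20 (adjusted p = 0.826). Socs2 (5.18), Serpinb6b (4.93), Fabp5 (4.90), Relb (2.24) and Cd274 (1.21) stayed called higher. Of the genes shared by all cDCs, 12 in the list, 10 were tested and 0 passed in either direction, with a median of 0.17. Flt3, the growth factor receptor of the lineage, had 91.7, 274 and 105 CPM in mature and 82.0, 174 and 231 in immature cells (0.03 ± 0.32 (adjusted p = 0.975)). Zbtb46, which marks cDCs, was not tested, with 22 UMIs in mature and 42 in immature cells. Of 15 type 2 cDC genes with counts 7 were tested, and Cd7 alone passed, higher with 115, 68.4 and 248 against 31.6, 0 and 78.9 CPM (1.97 ± 0.39 (adjusted p = 0.0132)), a call that ended without library 1 (2.17). Pooled, Cd7 was at 318 CPM in Il4i1-alone cells and at 8.04 in cells with all 4 choosing genes. It was at 605 CPM in the authors' pDC class and at 688 in their gdT/NK/NKT class.

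Of 38 transcription factors 25 were tested, 5 rose (6.48% of all tested genes did) and 0 fell, with a median of 0.34. Stat4, which relays interleukin-12, had 80, 325 and 78.4 CPM in mature and 16.6, 5.62 and 16.9 in immature cells (2.90 ± 0.49 (adjusted p = 0.00594)). Stat3 (1.11), Hivep1 (1.51) and Etv3 (1.75) also rose, and their calls ended without library 1 (1.31, 1.48 and 1.54), that of Stat3 also without library 2 (0.72) or 3 (1.18) and that of Hivep1 without library 3 (1.40). Tcf4 rose with 377, 77.0 and 131 against 148, 61.8 and 50.7 CPM (1.16 ± 0.29 (adjusted p = 0.0337)). The call ended without library 1 (0.81) or library 3 (1.03), and with mature cells limited to those with at least 3 choosing genes the change was -0.52 (adjusted p = 0.442), the opposite sign.

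Immediate-early genes, which dissociation of tissue can induce, changed in both directions: of 25, 22 were tested, Nr4a3 (1.63) and Klf6 (1.06) rose, and Egr1 (-1.26) and Atf3 (-1.05) fell, with a median of -0.18. Of 26 type I interferon response genes with counts 9 were tested and 0 passed, with a median of -0.00. Of 19 interferon-gamma response genes 16 were tested, and Cd274 rose and Cxcl10 fell. Of 19 glycolysis genes 13 were tested, and Pfkfb3, which speeds glycolysis, rose with 143, 265 and 78.4 against 22.6, 11.2 and 56.4 CPM (2.53 ± 0.47 (adjusted p = 0.00914)), while Ldha was at -0.75 and not called, though it was with cells thinned to 4000 UMIs (-1.70). Of 24 cholesterol and lipid genes 8 were tested, and Fabp5 was the 1 that passed. Of 26 cell cycle genes 4 were tested and 0 passed. Without library 1 the calls of Nr4a3 (1.84), Klf6 (1.26), Egr1 (-1.68) and Pfkfb3 (2.31) ended, and without library 3 those of Klf6 (1.09), Egr1 (-0.86) and Atf3 (-0.99).

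**Figure D4:**
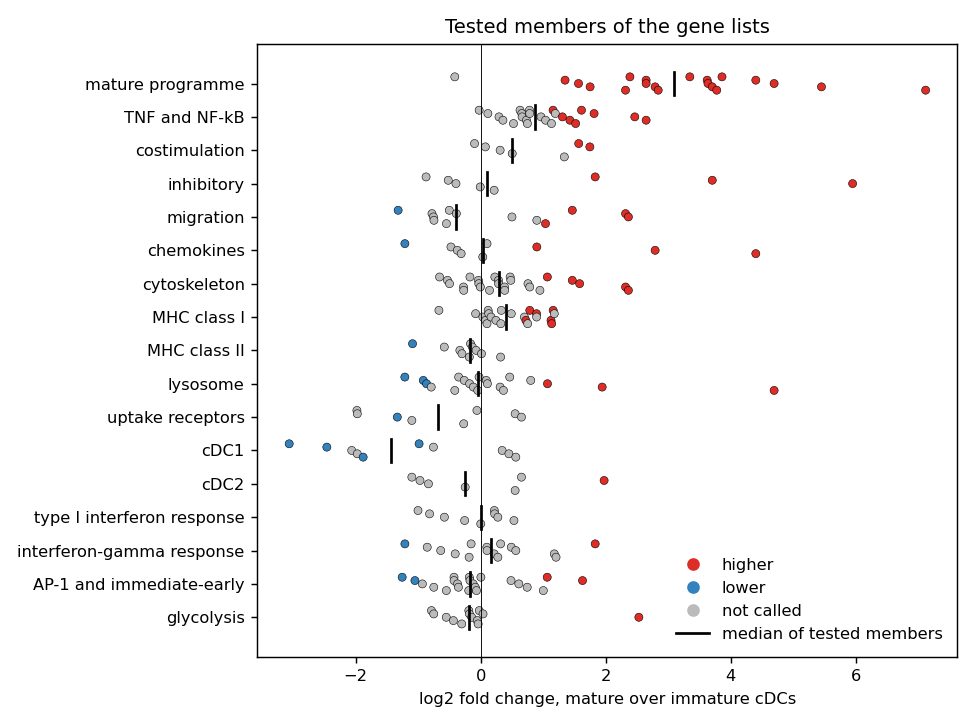
Log2 fold change of mature over immature cDCs (horizontal axis) for each tested member of 17 gene lists (rows), 1 point per gene, red called higher, blue called lower, grey not called; black ticks are list medians. The mature programme lies right of 0 with 19 of 20 members called, class II genes lie about 0, and the type 1 cDC list has its median at -1.43.

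Other settings ended further calls among the 79 called genes that may be named. Weighting cells equally in limma ended 22, among them Clec12a, Unc119, Wdfy4, Cd7, Icosl, Itga4, Marcksl1, Il21r, Cflar, Lgmn, Lsp1, Atf3, Stat3 and Hivep1. DESeq2 ended 18, among them Clec12a, Unc119, Wdfy4, Itga4, Il21r, Map3k14, Cflar, B2m, Lgmn, Egr1, Stat3, Hivep1 and Tcf4. The middle range of depth ended 25 of the 61 it tested, among them Cd40, Etv3, Nfkb2, Cxcl10, Cxcl16, H2-DMb1, B2m, Psme2, Psap, Nr4a3, Klf6 and Lyz2. With no library block 19 of the 79 passed.

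Markers of other cell types stood beside these results as follows, as summed UMIs per 1000000 UMIs in libraries 1, 2 and 3. The 16 macrophage markers had 495, 761 and 1098 in mature and 1033, 1602 and 2232 in immature cells, lower in mature cells of every library, and 1 of 4 tested, Lyz2, fell (-1.44 ± 0.30 (adjusted p = 0.015)), a call lost without library 1 (-1.16). The 11 monocyte markers had 1443, 359 and 1752 in mature and 1629.5, 1748 and 2249 in immature cells, with Ccr2 the 1 of 3 tested that fell. The 12 pDC markers had 1410.0, 539 and 1321 in mature and 759, 781 and 1155 in immature cells, with Tcf4 the 1 of 3 tested that rose. The 15 T cell markers had 323, 291 and 902 in mature and 122, 84.3 and 744 in immature cells, with Il7r the 1 member tested. The sum was higher in mature cells of every library, but in library 2 this rested on Il7r, described above as a gene that rose. Without Il7r the library 2 sum was lower in mature than in immature cells. Cells with at least 2 lymphocyte UMIs were 0% of mature and 6.25% of immature cells there. The 12 B cell markers had 470.0, 51.3 and 131 in mature and 244, 124 and 158 in immature cells, and the 1 tested, Ighm, was not called.

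The 12 NK and innate lymphoid markers had 113, 137 and 222 in mature and 140.0, 202 and 457 in immature cells, and the 9 plasma cell markers 127, 85.5 and 261 in mature and 141, 191 and 254 in immature cells, 1 tested in each and 0 called. Of 17 markers of Schwann, stromal and vessel cells 10 were in the table, with 242, 59.9 and 65.4 in mature and 77.5, 67.5 and 73.3 in immature cells, 0 tested and 6 of 10 at 0 in each group. Their part in the results was not tested, apart from the fit without lymphocyte-UMI cells: there 171 genes were higher and 72 lower of 2008 tested, of which 143 and 40 were also called with all cells.

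When mature cells were limited to the 44 with at least 3 of the 4 choosing genes, a comparison added after the mixture had been seen, more genes passed the test. Of 2225 genes tested, 300 were higher (13.5%) and 258 lower (11.6%), with 141 of the 152 and 44 of the 48 genes of the whole comparison among them. The median change of all tested genes was -0.10. Of the mature programme 21 of 22 tested members rose, with a median of 4.32. All 7 tested uptake receptors fell, with a median of -3.59, and all 4 tested macrophage markers fell. Of 10 tested type 1 cDC genes 7 fell, with a median of -3.02, while Irf8, Batf3 and Id2 rose. Of 6 tested type 2 cDC genes 5 fell, with a median of -2.53, and Tnfrsf11a rose. Most of the uptake receptors and macrophage markers, such as Cd14 and Fcgr1, were near 0 in mature cells. So were Xcr1, Naaa, Clec10a and Ccr2. These genes could pass the filter on low counts only through the immature sums. These list counts, and the call of Ccr2 below, are therefore no independent support. The uptake receptor Ly75, not tested, went the other way, with 176, 370 and 52.1 CPM in these mature cells and 28.9, 5.51 and 11.5 in immature cells. Ccr2 had 7.98, 0 and 0 CPM in these mature cells and 381, 193 and 638 in immature cells, a change of -5.90 (adjusted p = 1.01e-06). Of 10 tested class II genes 0 rose and 4 fell, with a median of -0.67 (11.6% of all tested genes fell). H2-DMb1 was at -3.00 (adjusted p = 1.62e-05). H2-DMa (-1.40, adjusted p = 0.0191), H2-Ab1 (-1.09, adjusted p = 0.0104) and Cd74 (-0.95, adjusted p = 0.0162) had not been called before. Irf8 now rose at 1.39 (adjusted p = 0.00212), Il1b fell at -1.11 (adjusted p = 0.00561), and Cd86 stayed not called at 0.20 (adjusted p = 0.728). Libraries 2 and 3 gave 9 and 4 of these 44 cells. The difference between this and the whole comparison was not tested, since both use the same immature cells.

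Aire (chromosome 10, 78030022 to 78043610), the gene altered in these mice, had 3 UMIs in 2 mature cells of library 1, both with all 4 choosing genes, and 0 in the 189 immature cells, which allows a share of up to 1.59% of cells with a UMI. At this depth nothing can be said of a difference. Other members of the mature programme too rare to test were Slco5a1, with 25 UMIs in mature and 0 in immature cells (at least 17.0-fold higher), Tmem150c with 28 and 1, and the adenylate cyclase Adcy6 with 32 and 1. Of the 30 programme genes 0 were at 0 UMIs in mature cells and 3 in immature cells.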

How the data were processed

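CD45+ cells of sciatic nerves were profiled in 3 droplet libraries of 1 genotype. The deposited table holds raw UMI counts of 17168 genes in 11640 cells, and the authors' cell table gives total counts, a mitochondrial percent, cell cycle scores and phases, clusters and cell classes. Cell Ranger 5.0.1, Seurat 4.0 and mm10 are named, without their roles, per the submitters' processing notes. The values show that the authors filtered cells, with an upper limit on detected genes that takes away the deepest cells. Cells were matched to libraries through the library number and the cell number in the labels.

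The members, gene lists and tests were chosen with earlier results of these data known. UMIs were summed over the mature and the immature cDCs of each library (6 sums, 74216 to 1279178 UMIs) and tested in edgeR 4.0.16 (TMM, filterByExpr, quasi-likelihood F-test, library as a block, Benjamini-Hochberg adjustment, R 4.3.3). The 4 choosing genes stayed in the library sizes. SEs are the log2 fold change over the root of F. The libraries pair the sums because both come from the same nerves: deviations from the group means correlate between the groups at 0.66, 0.41 and 0.64 over 2344 genes. Named genes are list members and, beyond these, the 10 largest called changes in each direction with a mean of at least 100 CPM in the higher group, no overlap and 1 sign in every library, without predicted, ribosomal, mitochondrial and antigen receptor segment genes; some of these are not reported here. Groups by number of choosing genes were added after the values had been seen. Doublets were called with Scrublet in scanpy 1.11.5 per library (84 of 11640 cells) and left out in 1 alternative. Thinned counts were drawn once with a fixed seed, leaving out 9 mature and 19 immature cells under 4000 UMIs. For the thinned fit and share, cells were chosen again by the same rule on the thinned counts. This gave 47, 8 and 5 mature and 157, 15 and 17 immature cells in libraries 1, 2 and 3. Calls of the thinned fit therefore differ in the choice of cells as well as in depth. Thinned percentages of cells with a UMI of a gene kept the first groups. Alternatives used DESeq2 1.42.0, limma 3.58.1, other filters, weights, depths and cell choices. The limma fit used log2 of the mean per-cell CPM plus 10, so its changes are not on the scale of edgeR's. The edgeR fit alone was run on simulated sums, with changes placed among the tested genes and the fit's own common dispersion. The choice of cells, the thinning and the list counts were not simulated. Gene positions are from GENCODE M21 on GRCm38 and promoters from RefSeq on GRCm38.p6.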

Additional observations from a re-analysis of the deposited data

How the results depend on the processing

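The counts of genes called higher (152) and lower (48) moved with the processing. Leaving out each library in turn gave 70 to 218 higher and 7 to 87 lower, the fewest without library 1, which holds most of the cells, and 57 of the 200 genes (52 higher, 5 lower) were called in all 3 such fits. The pairing mattered most: with no replicate block 25 and 3 genes were called. No filter on low counts gave 262 and 188 genes, and each cell weighted equally in limma 93 and 29. Cells thinned to 4000 UMIs, and chosen again on the thinned counts, gave 98 and 48 of 858 tested. The middle range of depth gave 64 and 8, and immature cells without Xcr1 or Clec9a 93 and 29. DESeq2 gave 105 and 31, and 5 or more against 0 UMIs 228 and 130. DESeq2 size factors, 2 or more against 0 or 1 UMIs, no Scrublet doublets and no lymphocyte-UMI cells stayed within 1.5 times of both counts. In alternatives chosen after seeing the data, mature cells with at least 3 choosing genes gave 300 and 258, and with at least 2 gave 256 and 144. The share of mature cells was 24.6% thinned and 26.2% with 5 or more UMIs, against 34.1%. Of the 79 named genes that were called, 32 stayed called without library 1, 75 without library 2 and 59 without library 3, 19 with no replicate block and 57 with cells weighted equally. Their sign turned once, for Tcf4 with at least 3 choosing genes, to -0.52 from 1.16. The causes were not tested. Of the 200 called genes 198 kept their sign in every fit that tested them. Libraries 2 and 3 hold 12 and 10 mature cells, which limits what rare genes can show.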
